A study of Macaca mulatta with 8 samples.

Results

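Zinc finger genes of the ZBTB, SCAN and KLF families were followed in mature oocytes of the rhesus macaque, arrested at metaphase II until fertilization. Members were all non-control probe sets with 1 platform gene symbol that starts with ZBTB, ZSCAN, ZKSCAN or KLF, which gave 139 of 52766 probe sets. They stood for 71 of 14132 genes named by such probe sets: 33 ZBTB genes (65 probe sets), 23 ZSCAN and ZKSCAN genes (34 probe sets) and 15 KLF genes (40 probe sets). One of them, ZBTB8OS, is named only for lying on the strand opposite a ZBTB gene and encodes no zinc finger protein. The study compared 4 arrays of oocytes that had matured in the animal (in vivo) with 4 arrays of oocytes that had matured in culture (in vitro). Each pool held 4 oocytes, whose RNA passed through 2 rounds of amplification before hybridisation. The labels give neither the age of the animals, nor a hormone treatment, nor the culture medium, and do not say which animals gave the oocytes. The p-values therefore measure the spread between these pools.

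Proteins of these families bind DNA through zinc fingers. ZBTB proteins pair through an amino-terminal BTB (POZ) domain, which also recruits corepressors such as NCOR1 and BCOR. ZSCAN proteins pair through a SCAN domain, and ZKSCAN proteins can also carry a KRAB domain, which recruits the corepressor TRIM28. KLF proteins bind GC-rich and CACCC sequences through a conserved block of fingers at the carboxy terminus, and their differing amino-terminal parts recruit coactivators, CTBP or SIN3A. A metaphase II oocyte is transcriptionally silent, so its transcripts are those stored during growth and kept or lost during maturation. In pooled cells, fewer transcripts per oocyte and fewer oocytes holding a transcript cannot be told apart.

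Values are MAS5 signals, the brightness that Affymetrix software gives a probe set on a linear scale. All 8 arrays had a mean signal of 150 without the lowest and highest 2% of values, and background lay between 15.7 and 27.0. The number of arrays limits the precision. Oocyte markers were present: 10 of 11 measured were above background on all arrays, with summed signals of 32980 to 43636 in vivo and 29109 to 37412 in vitro. Granulosa and cumulus markers, from the cells around the oocyte, summed to 5324 to 6261 in vivo and 5919 to 7687 in vitro. VCAN alone gave 2987 to 3872 of these sums. Of these markers, 8 of 11 were above background on all arrays and none was below it on all. In the limma fit 1 rose: STAR, the cholesterol transporter of steroid-producing cells (log2 fold change 2.60, limma adjusted p = 0.00783). HSD3B2 had 2.28 but did not pass (limma adjusted p = 0.204), and the others had -0.57 to 0.59. None of the oocyte, blood or stromal and endothelial markers passed. Blood markers summed to 144 to 239 in vivo and 60.0 to 147 in vitro, with 0 of 5 above background on all arrays, and stromal and endothelial markers to 460 to 694 and 529 to 1114, with 2 of 6 above background on all arrays. TAGLN alone read 616.5 on in vitro replicate 1, the array with the highest stromal and endothelial sum. It read 77.7 to 120.8 on the other in vitro arrays and 26.1 to 58.7 in vivo (log2 fold change 1.82, limma adjusted p = 0.23). DCN had -1.85 (limma adjusted p = 0.266), and the other tested stromal and endothelial markers had -0.41 to 0.52. Among oocyte markers NLRP5 had -1.03 (limma adjusted p = 0.193), and the others had -0.37 to 0.74. The part of cells other than oocytes in the levels below was not tested. Control probe sets near the 5' end of EEF1A1, a measure of how far amplification reached, had 37.0%, 13.0%, 36.8% and 7.79% of the 3' signal on in vivo replicates 1 to 4. The in vitro arrays lay between 20.4% and 27.9%. For ACTB, a second control, the 5' signal was only 0.667% to 1.96% of the 3' signal over all 8 arrays.

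Most members gave a signal. Of the 71 genes, 48 had a probe set above background on all 8 arrays: 26 ZBTB, 11 ZSCAN and ZKSCAN and 11 KLF genes. By probe set, 69 of 139 (49.6%) were above background on all arrays, against 34.1% of all non-control probe sets. No probe set of KLF1, KLF14, KLF17, ZBTB12, ZBTB32, ZBTB8OS or ZSCAN23 was above background on any array. The comparison was run on probe sets whose mean signal over all 8 arrays exceeded the median of that mean, 26.0. This kept 95 members of 56 genes: 44 ZBTB, 22 ZSCAN and ZKSCAN and 29 KLF probe sets. The other 44 members were too dim to be tested and never exceeded 61.3 on any array. The 15 genes without a tested probe set were these 7 together with KLF8, ZBTB7A, ZBTB10, ZBTB25, ZKSCAN5, ZSCAN5A, ZSCAN20 and ZSCAN30.

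The design sets maturation in culture against maturation in the animal. Among the zinc finger genes, ZBTB45 fell in the pools matured in culture, 2.72-fold at its brightest probe set. KLF6 and KLF12, an activator and a repressor of their family, had fitted values 2.71-fold and 2.06-fold lower at their brightest probe sets but did not pass the adjusted threshold of 0.05. In the other direction, ZBTB38 and ZKSCAN4 had fitted values 1.86-fold and 1.87-fold higher, and neither passed. KLF2, KLF4, ZSCAN4 and ZSCAN21 had log2 fold changes between -0.05 and 0.18. Fold changes were computed on log2(signal + 8.2), in vitro minus in vivo, which understates the change of dim transcripts.

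ZBTB45 was the single member past a limma adjusted p of 0.05, that is 1 of 95 tested (1.05%), against 39 of 26378 probe sets in all (0.148%), of which 13 were lower (0.0493%). At its brightest probe set the signal was 826, 763, 976 and 1540 on in vivo replicates 1 to 4. The in vitro replicates gave 363, 296, 313 and 488. The groups did not overlap, and in vivo replicate 4 was the highest. The log2 fold change was -1.44 ± 0.24 (SE), with a limma adjusted p of 0.0302 and means of 1026 ± 354 in vivo and 365 ± 86.9 in vitro (SD, n = 4). A second probe set, designed on the same target and so possibly sharing probes with the first, read 290, 305, 345 and 446 in vivo and 190, 155, 195 and 179 in vitro. Its groups did not overlap either, with a log2 fold change of -0.90 ± 0.21 (SE) and a limma adjusted p of 0.141. The remaining ZBTB45 probe set was dim, at 112, 5.0, 31.3 and 12 in vivo and 15.9, 17.4, 23.6 and 35.5 in vitro, with a log2 fold change of -0.14 whose 95% interval ran from -1.43 to 1.15. The call was lost without in vitro replicate 1, 2 or 3 (limma adjusted p = 0.135, 0.16 and 0.128) and in a fit without an intensity trend (0.219). The log2 fold change stayed between -1.59 and -1.23 with any array left out.

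**Figure D1:**
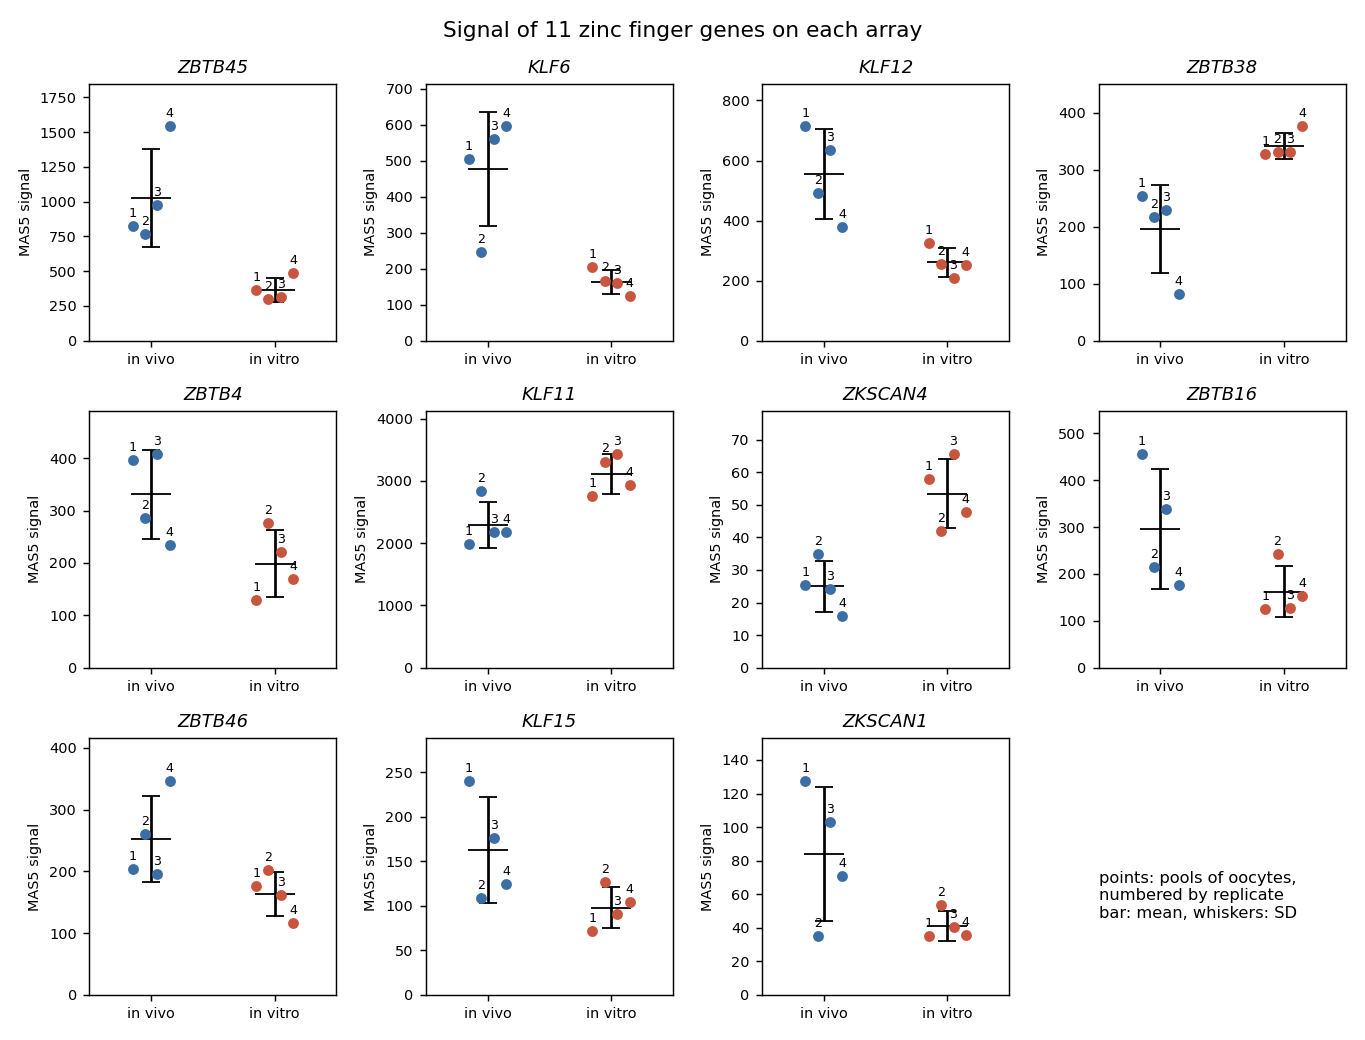
MAS5 signal (linear axis from 0) of the brightest probe set of the 11 genes for which it had an unadjusted limma p under 0.05, on each in vivo (blue) and in vitro (red) array; points carry replicate numbers, bars are means and whiskers SD over 4 arrays. The groups do not overlap for ZBTB45, KLF6, KLF12, ZBTB38 and ZKSCAN4, and overlap for the other 6; only ZBTB45 passed the adjusted threshold.

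Members nearest to ZBTB45 in the test were KLF probe sets. KLF6 encodes a broadly expressed activator that is induced early by growth and injury signals. Its brightest probe set read 504, 246, 559 and 595 on in vivo replicates 1 to 4 and 205, 167, 159 and 123 on in vitro replicates 1 to 4. All in vivo arrays were above all in vitro arrays, although in vivo replicate 2 lay close to in vitro replicate 1. The log2 fold change was -1.44 ± 0.28 (SE) at a limma adjusted p of 0.0576. Without in vivo replicate 2, the lowest of its group, it was -1.73 and passed (limma adjusted p = 0.00928). With any other array left out it was -1.55 to -1.31 and did not pass (limma adjusted p = 0.0684 to 0.231). A second KLF6 probe set, at 160, 158, 332 and 427 in vivo and 110, 47.4, 85.0 and 88.6 in vitro, did not overlap between groups either (log2 fold change -1.53, limma adjusted p = 0.109). Another designed on the same target had -1.01, and a further one, highest on in vivo replicate 1 at 578, had -0.66 (limma adjusted p = 0.468 for each). The 2 dimmest tested KLF6 probe sets, with mean signals of 37.4 and 30.5, had 0.99 and -0.20, with 95% intervals from -0.19 to 2.16 and from -1.42 to 1.02.

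KLF12, which represses the AP-2 alpha gene TFAP2A by recruiting CTBP, had 5 tested probe sets. The brightest read 714, 493, 635 and 377 in vivo and 326, 256, 209 and 251 in vitro. The groups did not overlap, and in vivo replicates 1 and 3 were above 2 and 4. The log2 fold change was -1.04 ± 0.23 (SE) at a limma adjusted p of 0.114, which became 0.0318 without in vivo replicate 4, the lowest of its group. With any other array left out the limma adjusted p was 0.179 to 0.346. At a second probe set in vivo replicates 1 and 3 read 281 and 249, while in vivo replicates 2 and 4 read 86.0 and 85.9, within the in vitro range of 60.0 to 111. Its log2 fold change was -0.87. The other 3 tested probe sets, with mean signals of 84.2 or less, had 0.10, 0.25 and -0.15.

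**Figure D2:**
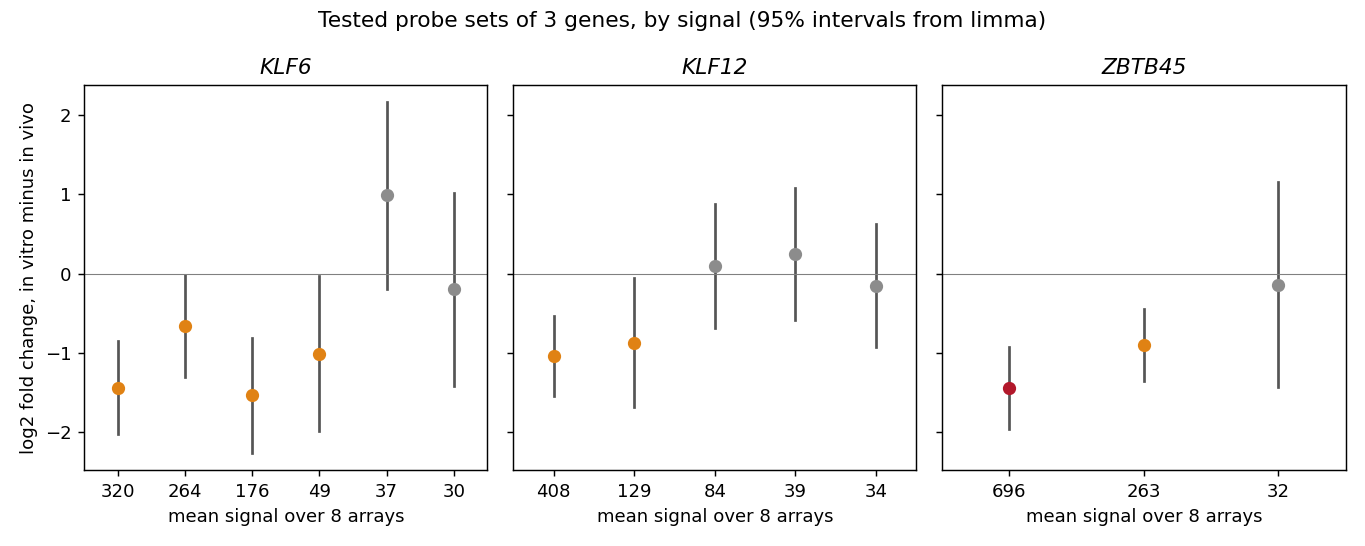
Log2 fold change (in vitro minus in vivo) with its 95% limma interval for each tested probe set of KLF6, KLF12 and ZBTB45, ordered by mean signal over the 8 arrays (printed under each point); red marks an adjusted p under 0.05, orange an unadjusted p under 0.05 and grey neither. Values of -0.66 to -1.53 at 4 KLF6 probe sets contrast with 0.99 at a dim one whose interval spans 0.

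KLF15, a regulator of glucose and amino acid metabolism in liver and muscle, read 241, 109, 176 and 125 in vivo and 71.3, 126, 90.5 and 104 in vitro. The groups overlapped (log2 fold change -0.65, limma adjusted p = 0.44). KLF7 was dim at the probe set with its smallest p, at 34.8, 33.1, 57.0 and 37.3 in vivo and 27.6, 40.9, 17.6 and 24.2 in vitro, and its 3 probe sets had -0.46, -0.30 and 0.28. KLF11, induced by TGF-beta and a partner of SIN3A, was the KLF member with the smallest p in the other direction. It read 1989, 2838, 2184 and 2180 in vivo and 2762, 3312, 3439 and 2934 in vitro. In vivo replicate 2 alone reached into the in vitro range, and the log2 fold change was 0.44 ± 0.17 (SE; limma adjusted p = 0.374). Its other tested probe sets had 0.48 and -0.07.

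KLF2, KLF4 and KLF5, which help maintain pluripotency in embryonic stem cells, were above background on all arrays. KLF2 read 3998, 4785, 3277 and 6057 in vivo and 5313, 4422, 4715 and 4239 in vitro. KLF4 gave 541, 863, 518 and 750 in vivo and 750, 712, 828 and 678 in vitro. In both genes the in vitro arrays lay within the in vivo range. The log2 fold change of KLF2 was 0.08 (95% interval -0.32 to 0.48) and that of KLF4 was 0.18 (-0.26 to 0.61). KLF5 read 153, 434, 180 and 334 in vivo and 362, 266, 274 and 270 in vitro, with low values on in vivo replicates 1 and 3, and had a log2 fold change of 0.20 (-0.43 to 0.83). KLF17, a KLF of the early human embryo, gave 5.4 to 9.6 in vivo and 5.7 to 14.3 in vitro, at or below background on every array.

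By known partners, 15 tested probe sets of the mainly activating members (KLF2, KLF4, KLF5, KLF6 and KLF7) had log2 fold changes from -1.53 to 0.99. Their median was -0.08. Of these, 9 were negative, and the 4 with an unadjusted p under 0.05, a level reached by 10.3% of all tested probe sets, were all of KLF6. The 7 of the CTBP-binding repressors (KLF3 and KLF12) ranged from -1.04 to 0.25. Another 6, of the SIN3A-binding members (KLF10, KLF11 and KLF13), ranged from -0.25 to 0.48. Within each class the probe sets thus lay on both sides of 0. KLF1, KLF8 and KLF14, also of these classes, had no tested probe set. Among the 21 tested KLF probe sets outside the naming rule, limma adjusted p-values were 0.109 or more. An unadjusted p under 0.05 was found at 4 of them (3 of KLF6 and 1 of KLF12). The rule had already taken out any member past the adjusted threshold and probe sets of smallest p. This remainder is therefore not comparable with all tested probe sets.

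Some ZBTB proteins read DNA methylation. ZBTB38 and ZBTB4 bind methylated CpG sites, and ZBTB33 (Kaiso) is the founding member of that group. ZBTB38 read 253, 216, 229 and 81.6 in vivo and 328, 331, 332 and 376 in vitro. The groups did not overlap, and in vivo replicate 4 lay far below the rest. The log2 fold change was 0.89 ± 0.30 (SE; limma adjusted p = 0.323) and became 0.54 without in vivo replicate 4. The other tested ZBTB38 probe sets, both dim, had 0.17 and -0.11. ZBTB4 was on the opposite side, at 396, 286, 409 and 234 in vivo and 128, 277, 220 and 169 in vitro. The groups overlapped, with a log2 fold change of -0.73 (limma adjusted p = 0.365), and its other probe sets had -0.42 and -0.15. ZBTB33 read 181, 186, 136 and 177 in vivo and 198, 180, 158 and 206 in vitro, and its log2 fold change was 0.12 (95% interval -0.33 to 0.58).

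ZBTB16 (PLZF), needed for self-renewal of spermatogonial stem cells, read 457, 214, 338 and 176 in vivo and 126, 242, 128 and 154 in vitro. In vivo replicates 1 and 3 were above every in vitro array, and in vivo replicates 2 and 4 lay among them. Its log2 fold change was -0.79 (limma adjusted p = 0.391). ZBTB46, a marker of classical dendritic cells, read 204, 261, 196 and 347 in vivo and 176, 202, 161 and 116 in vitro, with a log2 fold change of -0.59 at this probe set and 0.00 at the other. ZBTB17 (MIZ1), a partner of MYC, read 310, 326, 526 and 264 in vivo and 271, 270, 347 and 221 in vitro. Its log2 fold change was -0.32, and -0.12 without in vivo replicate 3. The groups overlapped for both genes. ZBTB18, a neuronal repressor, read 50.7, 62.5, 38.8 and 81.6 in vivo and 46.3, 47.2, 77.9 and 87.5 in vitro (log2 fold change 0.13). ZBTB7A (LRF), a regulator of blood lineage choice, had 6 probe sets, all too dim to be tested. Its brightest gave 3.6 to 20.6 in vivo and 9.2 to 26.9 in vitro.

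Bright ZBTB probe sets besides that of ZBTB45 were close between groups. ZBTB49 read 1981, 2209, 1893 and 2223 in vivo and 2631, 2437, 2638 and 2376 in vitro. Its groups did not overlap, but the difference was small (log2 fold change 0.28 ± 0.15 SE, limma adjusted p = 0.556). ZBTB21 gave 1037, 1246, 810 and 1484 in vivo and 1191, 992, 894 and 1020 in vitro, with the in vitro arrays inside the in vivo range (log2 fold change -0.13). ZBTB39 read 700, 782, 665 and 1031 in vivo and 533, 724, 548 and 617 in vitro, with a log2 fold change of -0.38 (limma adjusted p = 0.54). The groups overlapped through in vitro replicate 2, and without in vivo replicate 4 the value was -0.25. The 33 tested ZBTB probe sets outside the naming rule, of 21 genes, had log2 fold changes from -0.90 to 0.58. The 1 with an unadjusted p under 0.05 was the second probe set of ZBTB45. The naming rule had already taken out any member past the adjusted threshold and probe sets of smallest p. This remainder is therefore not comparable with all tested probe sets.

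In the SCAN families 0 of 22 tested probe sets passed the limma adjusted threshold, and 2 had an unadjusted p under 0.05 (1 in each direction, 4.55% each). These shares are near those of all tested probe sets, 0.148% past the adjusted threshold and 4.66% higher and 5.61% lower at the unadjusted level. ZKSCAN4 read 25.3, 35.0, 24.0 and 15.8 in vivo and 58.0, 41.8, 65.7 and 47.9 in vitro. The groups did not overlap, but only 2 in vivo arrays were above background (log2 fold change 0.90, limma adjusted p = 0.381). ZKSCAN1 read 128, 35.2, 103 and 70.6 in vivo and 34.8, 53.8, 40.6 and 35.5 in vitro, which gave a log2 fold change of -0.80 (limma adjusted p = 0.461). In vivo replicate 2 lay at the level of the in vitro arrays, and a second ZKSCAN1 probe set had -0.46. ZSCAN9 read 31.5, 49.5, 66.8 and 70.8 in vivo and 32.4, 36.0, 4.6 and 40.2 in vitro, and leaving out in vitro replicate 3 moved its log2 fold change from -0.90 to -0.45. ZSCAN31 gave 41.1, 45.6, 29.7 and 23.4 in vivo and 20.1, 21.3, 25.8 and 17.5 in vitro. ZSCAN29 gave 43.4, 20.6, 18.6 and 54.7 in vivo and 28.5, 9.1, 7.0 and 29.0 in vitro at the probe set with its smaller p. The probe sets shown for these 3 genes were near background, with limma adjusted p-values of 0.518 to 0.673. ZSCAN29 had a log2 fold change of -0.70 there. At its other tested probe set, above background on all arrays with a mean signal of 59.3, it had 0.01.

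ZSCAN4, known for telomere maintenance in stem cells and for a burst of expression in the early embryo, read 109, 172, 179 and 123 in vivo and 157, 102, 156 and 143 in vitro. Its log2 fold change was -0.05 (95% interval -0.58 to 0.47), and its other probe set lay below the filter. ZSCAN10, a pluripotency factor, gave 28.6, 14.1, 19.4 and 67.1 in vivo and 54.3, 12, 10.9 and 35.0 in vitro, above background on 2 arrays of each group. ZKSCAN3, a repressor of autophagy genes, gave 20.5, 28.4, 39.4 and 17.1 in vivo and 34.6, 35.7, 50.1 and 29.5 in vitro, for a log2 fold change of 0.43 (limma adjusted p = 0.737). For these 3 genes the groups overlapped. ZSCAN21 had one of the narrowest intervals, at 1598, 1452, 1482 and 1479 in vivo and 1492, 1724, 1322 and 1448 in vitro, with a log2 fold change of -0.01 (-0.35 to 0.33). ZKSCAN2 read 656, 751, 602 and 940 in vivo and 804, 833, 715 and 931 in vitro (log2 fold change 0.17). ZSCAN1 read 389, 514, 836 and 325 in vivo and 378, 358, 413 and 434 in vitro, where in vivo replicate 3 was the highest. Its log2 fold change of -0.29 was -0.03 when that array was left out and -0.47 without in vivo replicate 4. The groups overlapped at these 3 bright probe sets. The 11 other tested probe sets of these families, of 9 genes, ranged from -0.46 to 0.41.

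Several members lie next to each other as protein-coding genes in the RefSeq gene order of the T2T-MMU8v2.0 assembly. ZKSCAN4 and ZSCAN9 are such neighbours, with log2 fold changes of 0.90 and -0.90. The same holds for KLF5 and KLF12 (0.20 and -1.04), ZKSCAN1 and ZSCAN21 (-0.80 and -0.01) and ZKSCAN3 and ZSCAN31 (0.43 and -0.53). The values are those of the probe sets described above, and none of these 8 genes passed the threshold.

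Over the tested members, 59 of 95 log2 fold changes were negative (62.1%) and their median was -0.08, against 49.5% and 0.00 over all tested probe sets. The medians were -0.12 for ZBTB, -0.09 for ZSCAN and ZKSCAN and -0.02 for KLF. An unadjusted p under 0.05 was found at 16 of them, against 10.3% of all tested probe sets. Of these, 13 were lower in vitro (13.7%), against 5.61% of all tested probe sets, and 3 were higher (3.16%), against 4.66%. These 13 came from 8 genes, with 4 probe sets of KLF6 and 2 each of KLF12 and ZBTB45, so they are not independent. Counting genes by their brightest probe set, 8 of 56 were lower (14.3%), against 7.17% of 10244 genes, and 3 were higher, against 4.73%. The groups did not overlap at 8 members (8.42%), against 6.33% of all tested probe sets. Of these, 5 were lower in vitro (2 probe sets each of ZBTB45 and KLF6 and 1 of KLF12), against 3.15%, and 3 were higher (ZBTB38, ZBTB49 and ZKSCAN4), against 3.18%. Without in vitro replicate 1 there were 7 members lower at an unadjusted p under 0.05 (7.53%), against 4.22% of all probe sets then tested, and array weights left 8 (8.42%), against 6.1%. Without in vitro replicate 3 there were 10 at that level in both directions, 1 of them higher. The lower ones were 9.28% of tested members, against 4.77% of all probe sets then tested. The non-overlapping members numbered 13 without in vivo replicate 1 (14.4%, against 11.1% of all probe sets then tested) and 15 without in vitro replicate 2 (15.6%, against 9.43%), where 3 arrays face 4 and separate more easily.

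**Figure D3:**
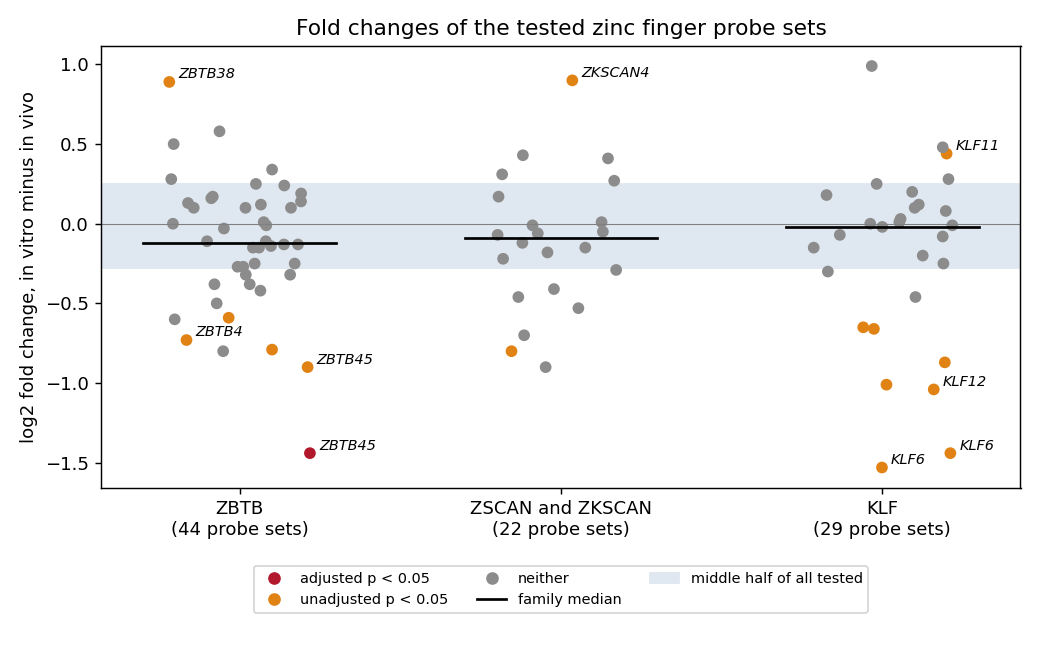
Log2 fold change (in vitro minus in vivo, vertical axis) of the 95 tested probe sets by family; red marks an adjusted p under 0.05, orange an unadjusted p under 0.05, black lines are family medians and the band is the interquartile range of all tested probe sets (-0.28 to 0.25). Horizontal spread within a family has no meaning; the lowest points belong to KLF6 and ZBTB45.

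The in vivo arrays varied more than the in vitro arrays at most members. The median coefficient of variation of a tested member was 32.8% in vivo and 22.8% in vitro, and it was larger in vivo at 69 of 95 members (72.6%), against 66.8% of all tested probe sets. In vivo replicate 1 was the highest of the 8 arrays at 26 members (27.4%), against 18.1% of all tested probe sets. Of the 13 members lower in vitro at an unadjusted p under 0.05, 7 had in vivo replicates 1 and 3 both above replicates 2 and 4, the order of the EEF1A1 ratio (53.8%, against 33.8% of all probe sets lower at that level). These were the probe sets of KLF12, KLF15, ZBTB16, ZBTB4 and ZKSCAN1 and 1 of KLF6. With that ratio as a covariate, an alternative added after seeing the data, 13 members were lower at an unadjusted p under 0.05, now against 8.73% of all probe sets. Past the limma adjusted threshold were then ZBTB45 (log2 fold change -1.38, adjusted p = 0.00991), KLF12 (-1.16, 0.0108) and 2 KLF6 probe sets (-1.47 and -1.48, 0.0176 and 0.0453). That fit called 302 probe sets in all.

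Of the 56 genes, 24 had more than 1 tested probe set, and at 14 of them all had the same sign, 9 negative and 5 positive. ZBTB14, a repressor of MYC, was negative at all 4 probe sets (-0.60 to -0.13), and ZBTB43 was positive at all 3 (0.10 to 0.19). The range between probe sets of a gene had a median of 0.48 and exceeded 1 for KLF6, KLF12 and ZBTB45. The 95% interval of the log2 fold change had a median half-width of 0.64, and at 53 of 95 members (55.8%) it lay wholly between -1 and 1. At the other 42 a 2-fold difference in some direction was not excluded by the interval.

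Related genes and cofactors were read from the same fit. The list held POZ and SCAN zinc finger genes under other names, the SP family, which shares the fingers of KLF proteins, and corepressors and coactivators. Of 57 genes, 43 had a tested probe set (82 probe sets), and none passed the limma adjusted threshold. At an unadjusted p under 0.05, 2 of the 82 were higher and 1 was lower, against 4.66% and 5.61% of all tested probe sets, and the median log2 fold change was 0.05. CTBP2, the corepressor of KLF3, KLF8 and KLF12, read 416, 795, 873 and 338 in vivo and 959, 881, 754 and 1072 in vitro at the probe set with its smallest p. Its groups overlapped (log2 fold change 0.69, limma adjusted p = 0.405), and its other 4 tested probe sets had 0.31, 0.05, -0.15 and -0.23. At the probe set with the smallest p, CTNND1, encoding the ZBTB33 partner p120 catenin, had 0.36 (0.14 and 0.23 at its others). The heterochromatin protein gene CBX1 had -0.36 and the deacetylase gene HDAC2 -0.51 (0.15 at its other probe set). NCOR1 had -0.54 (-0.36 and -0.28 at its other tested ones). SCAND1, a SCAN domain gene without zinc fingers, had -0.43 (-0.78 at its other, dimmer one). Limma adjusted p-values of these 5 genes at the probe set with the smallest p lay between 0.45 and 0.556. Over the whole list, the groups did not overlap at a probe set each of CTNND1, CBX1 and NCOR1 and at a dim SP1 probe set (0.63). The other tested SP1 probe sets had -0.40, -0.36 and -0.01. Of all tested probe sets, 6.33% did not overlap. Of 28 tested probe sets of POZ and SCAN genes under other names, 9 were negative, with a median of 0.12, and of 12 SP probe sets 8 were negative, with a median of -0.03.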

How the data were processed

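Total RNA of pools of 4 oocytes was amplified in 2 rounds and hybridised to single-colour Affymetrix arrays, per the labels' protocols. The authors deposited one intensity per probe set and array; the submitters' processing notes name MAS5, with no version, and the values are linear. MAS5 signals of dim probe sets vary strongly between arrays. Of 52865 probe sets, 99 controls were left out. Genes were named from the platform annotation (24956 probe sets with 1 symbol). Of the 139 members, 137 were found by Entrez identifier in the RefSeq table, and 0 symbols changed. No sequences or coordinates are given.

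Values were taken as log2(signal + 8.2), the 25th percentile of non-control signals. The 26378 probe sets whose mean signal exceeded its 50th percentile were tested with limma 3.58.1 in R 4.3.3 (lmFit, eBayes with an intensity trend, Benjamini-Hochberg adjustment over all of them at 0.05). The fit was also run on simulated data, where changes were added only to brighter probe sets. How often it recovers changes of the size seen here is not given. Background on an array was taken from 59 control probe sets that were not spiked in, at their 95th percentile. Samples were grouped by titles, 4 arrays each. Members and lists were chosen with earlier results of these data known. Array values were given for members past the adjusted threshold, per family the 5 genes of smallest p and the 4 of highest signal, genes whose probe sets had opposite signs at an unadjusted p under 0.05 (there were none), and 12 genes fixed for their role. Of cofactors, the 6 of smallest p were named. Alternatives were other pseudocounts, filters, normalizations and variance models, array weights, a replicate block and each array left out.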

Additional observations from a re-analysis of the deposited data

Results flagged for a closer look

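The arrays of each group were checked for a single array standing apart from the other 3 (Dixon's test at the 95% level on log2 values) at 32 named probe sets in both groups, 64 checks in all, and 7 stood apart, where chance gives about 1 in 20. ZBTB38 did so in both groups: in vivo replicate 4 read 81.6, below 216 to 253 on the others, and in vitro replicate 4 read 375.9, above 328 to 332. The value of 4.6 for ZSCAN9 on in vitro replicate 3 lay below 32.4 to 40.2. For KLF5, 362.4 on in vitro replicate 1 lay above 266 to 274, and for ZBTB33, 136 on in vivo replicate 3 lay below 177 to 186. ZBTB7A, near background throughout, had 3.6 on in vivo replicate 4 against 17.2 to 20.6, and 9.2 on in vitro replicate 3 against 23.5 to 26.9.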

How the results depend on the processing

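The 39 calls over all probe sets became 7 without an intensity trend, 88 with array weights, 302 with the EEF1A1 ratio as a covariate, and 19 to 96 with an array left out (72 and 96 when in vivo replicate 1 or 4 was absent, 19, 23 and 21 when in vitro replicate 1, 2 or 3 was). The single member call, ZBTB45, became 2 without a filter, with a filter at the 75th percentile, with median centring and with robust eBayes. KLF6 was then added (limma adjusted p = 0.0462, 0.049, 0.022 and 0.0497), and calls over all probe sets were 52, 50, 50 and 54. Member calls were 4 with the covariate, 0 without the trend, and 0 to 2 with an array left out. The 16 members at an unadjusted p under 0.05 became 10 to 15 with an array left out. The 13 lower ones became 8 with array weights (8.42%, against 6.1% of all probe sets). With an array left out they became 7 to 12 (7.53% to 12.8%, against 4.13% to 7.72% of all probe sets then tested). The 3 higher ones became 5 with the covariate and 1 to 4 with an array left out. For both directions together and for the higher ones, shares over all probe sets at this level were not computed in the alternatives. The 8 non-overlapping members became 9 to 15 with an array left out (9.57% to 15.6%, against 8.76% to 11.9% of all probe sets then tested). They became 7 with the stricter filter (14%, against 8.43%). Under the other filters and normalizations they stayed 8 (5.76% to 8.42%, against 4.49% to 6.47%). The median of the members stayed between -0.14 and -0.03, and the median over all probe sets moved by at most 0.05. Cofactor calls were 0 under every alternative.

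Small values of uncalled members changed sign: KLF5 to -0.01 and ZSCAN21 to 0.01 with array weights, and ZSCAN4 to 0.05 with quantile normalization. With an array left out the log2 fold change ran from -0.07 to 0.23 for KLF2, from -0.03 to 0.45 for KLF5, from -0.5 to 0.07 for ZSCAN10, from -0.08 to 0.05 for ZSCAN21, from -0.17 to 0.08 for ZSCAN4 and from -0.03 to 0.28 for ZBTB18. The cause of these changes was not tested. Arrays with the same replicate number did not deviate together (correlations 0.011, -0.018, -0.045 and -0.023). With 4 arrays in each group this cannot exclude that such arrays shared an animal. The main fit did not treat them as pairs. With the replicate block there were 44 calls, 1 of them a member (ZBTB45, limma adjusted p = 0.0118), and 13 members at an unadjusted p under 0.05. The covariate and a filter on mean log2 signal (38 calls) were added after seeing the data. Probe sets near background, about 15.7 to 27.0, have wide intervals.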
